A study of Sus scrofa with 40 samples.

Results

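The C/EBP transcription factors and the repressor BCL6 were followed through warm ischemia and cold storage in the kidneys of 3-month-old Large White pigs. A probe was taken when its gene name was CEBPA, CEBPB, CEBPD, CEBPG, DDIT3 or BCL6, when its description gave one of those symbols in brackets, or, for CEBPA, when its target was the sequence cluster TC618296. This gave 10 of the 43603 probes of the array that are not controls, for 6 genes: 2 probes each for CEBPA, CEBPD, CEBPG and DDIT3, and 1 each for CEBPB and BCL6. Tissue came from the cortex (C) and the corticomedullary junction (CMJ), and each of the 40 samples was hybridised to its own single-colour array. Control kidneys (Ctl) had no ischemia. Warm ischemia (WI) was 60 min of clamping at 37 °C. The kidneys of the other groups were clamped in the same way, then flushed with University of Wisconsin solution and kept in it at 4 °C for 6 h in the groups called WI+CS6h and for 24 h in those called WI+CS24h. Each of the 8 groups held 5 samples. The same 5 kidneys were sampled at 6 h and at 24 h, so the comparisons of those times with Ctl share both the kidneys and the control arrays. No cold storage was done without warm ischemia, so the WI+CS groups carry both, and none of the kidneys was reperfused.

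C/EBP proteins are leucine zipper factors that bind DNA as pairs with each other or with related factors. CEBPA drives differentiation and metabolic programs and restrains proliferation, while CEBPB and CEBPD are induced early by cytokines and stress and act on acute phase genes. CEBPG has no activation domain of its own and works mainly through its partners, and DDIT3 (CHOP) is the C/EBP member induced by the unfolded protein and amino acid responses. BCL6 is a zinc finger repressor known first from germinal centre B cells, and it also represses inflammatory and metabolic genes in other cells.

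Because the probes of 1 gene did not always move together, the sequences of 6 of them are given here, 5′ to 3′ as the array files list them. For probes outside coding sequence only the first 30 of 60 bases are printed. No genome of the array's build was used, so genomic positions were not analysed here.
CEBPA A_72_P412888 (cluster TC618296): gttctcttctttgggggagaacgtagagtt
CEBPA A_72_P399728 (coding): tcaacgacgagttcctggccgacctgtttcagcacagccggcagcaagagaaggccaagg
CEBPB A_72_P399493 (coding): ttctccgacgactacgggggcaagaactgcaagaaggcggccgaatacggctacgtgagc
CEBPG A_72_P244762: attgtccttgttgactcttttaagcacaaa
CEBPG A_72_P047541: aacctggtcagctgtcactacttgagtagt
BCL6 A_72_P245182: tttggctgtgtctaaactgcattaccgcgt
The CEBPA probe on TC618296 holds 35% G and C, against 60% for the CEBPA coding probe and 60% for the CEBPB probe. The CEBPG probes were designed on different records, XM_003127018 for A_72_P244762 and AK389983 for A_72_P047541, while both CEBPD probes lie in ENSSSCT00000006875. Where a gene has 2 probes, the one with the higher mean signal over the 40 arrays leads its account: A_72_P412888 for CEBPA, A_72_P474198 for CEBPD, A_72_P244762 for CEBPG and A_72_P157561 for DDIT3.

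Values are log2 signals after quantile normalization over the 40 arrays. They compare samples for 1 probe and do not rank one probe against another. On each array 57.01% to 69.91% of the spots were well above background by the scanner software's own flag. No member spot was saturated or flagged as an outlier. Of the 10 probes, 8 were well above background on every array, the CEBPB probe on 38 of 40 and the CEBPA coding probe on 19 of 40, with 0 of 5 in either Ctl group. The samples numbered 5 of all 4 cold-stored groups stood apart from the other 36. Their summed signal for 4 of 6 listed neutrophil markers was 1556 to 2405, against 9.89 to 172.7 in the other 16 cold-stored samples and 11.58 to 41.24 in the 20 samples without cold storage. S100A12, a neutrophil calcium-binding protein, made up 93.7% to 98% of that sum in them, and read 10.51 to 11.2 on the log2 scale against 2.17 to 6.30 in the other 36. S100A8 (5.06 to 6.09, others up to 6.03) and S100A9 (3.71 to 4.89, others up to 4.75) overlapped the other samples, and MPO, the neutrophil granule enzyme, was well above background on no array. Their summed proximal tubule signal, over 6 of 10 listed markers, was 71310 to 82880, against 107600 to 158300 in all other samples. FBP1, a gluconeogenic enzyme and 46.2% to 48.5% of that sum (15.03 to 15.28, others from 15.73), and the endocytic receptor LRP2 (13.47 to 13.7, others from 14.03) were below all other samples, whereas SLC34A1, SLC22A6 and SLC22A8 lay inside their range and GATM overlapped it. Results that rest on these samples are therefore given with and without them. In bulk tissue, fewer cells of a type and less RNA per cell cannot be told apart.

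Warm ischemia followed by cold storage changed 5 of the 6 genes relative to Ctl at either time and in either tissue, on 6 or 7 of the 10 probes. Relative to WI 3 or 4 genes changed, on 4 or 5 probes, and after warm ischemia alone 0 or 1 probe did. A probe was called when its adjusted p in limma, over all probes of the comparison, was under 0.05 and its log2 change at least 0.5 in size. In WI-C versus Ctl-C, 0 of 10 member probes were called by limma, where 0.0849% of all tested probes were. Without adjustment 3 had p under 0.05, beside 5.31% of all probes. In WI+CS6h-C versus Ctl-C, 7 were called, 5 higher and 2 lower, against 4.45% of all probes (1.98% higher and 2.47% lower). At 24 h, 6 were called against Ctl-C, 4 higher and 2 lower, beside 2.9% (1.32% higher and 1.57% lower). The corticomedullary junction gave a like picture. WI-CMJ versus Ctl-CMJ had 1 call against 0.787%, WI+CS6h-CMJ versus Ctl-CMJ had 7 (6 higher and 1 lower) against 3.33% (1.47% higher and 1.86% lower), and WI+CS24h-CMJ versus Ctl-CMJ had 7 (5 higher and 2 lower) against 3.7% (1.45% higher and 2.25% lower). Against WI rather than Ctl, 5 probes were called in WI+CS6h-C where 2.44% of all probes were, and 4 in WI+CS24h-C where 1.68% were. In the junction 4 were called at 6 h (3.28%) and 4 at 24 h (3.34%). The median log2 change of the 10 probes was 0.55 at 6 h and 0.49 at 24 h in the cortex relative to Ctl-C, where the median of all probes was 0.057 and 0.014. It was 0.54 and 0.52 in the junction relative to Ctl-CMJ, against -0.0025 and 0.0082. In the cold-stored cortex at 6 h and 24 h, 6 and 6 of the 10 probes did not overlap Ctl-C, beside 5.81% and 6.39% of all probes, and in WI+CS6h-CMJ and WI+CS24h-CMJ 7 and 7 did not overlap Ctl-CMJ, beside 6.34% and 5.62%. Without the samples numbered 5, the calls versus Ctl were 6 and 6 in the cortex, beside 3.59% and 3.9% of all probes, and 6 and 7 in the junction, beside 3.8% and 4.12%.

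**Figure D1:**
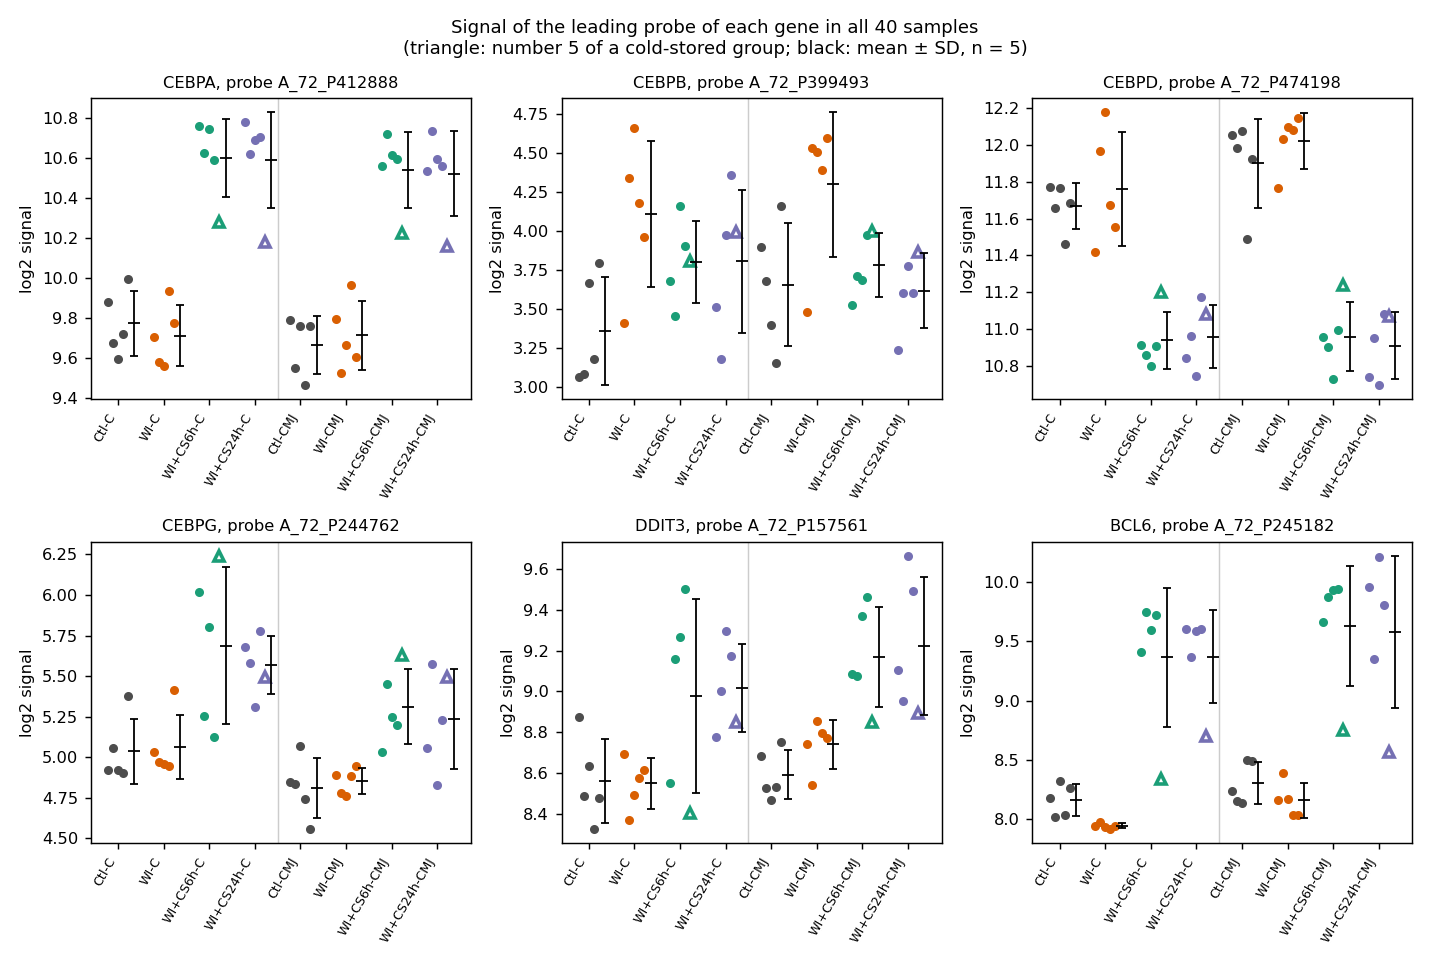
Log2 signal (y axis) of the leading probe of each gene in the 40 samples, with the 8 groups on the x axis, 1 point per sample and black bars at the mean ± SD of each group (n = 5); open triangles are the cold-stored samples numbered 5. CEBPA and BCL6 sit higher and CEBPD lower in the cold-stored groups, and the samples numbered 5 are the lowest of their groups for CEBPA and BCL6.

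**Figure D2:**
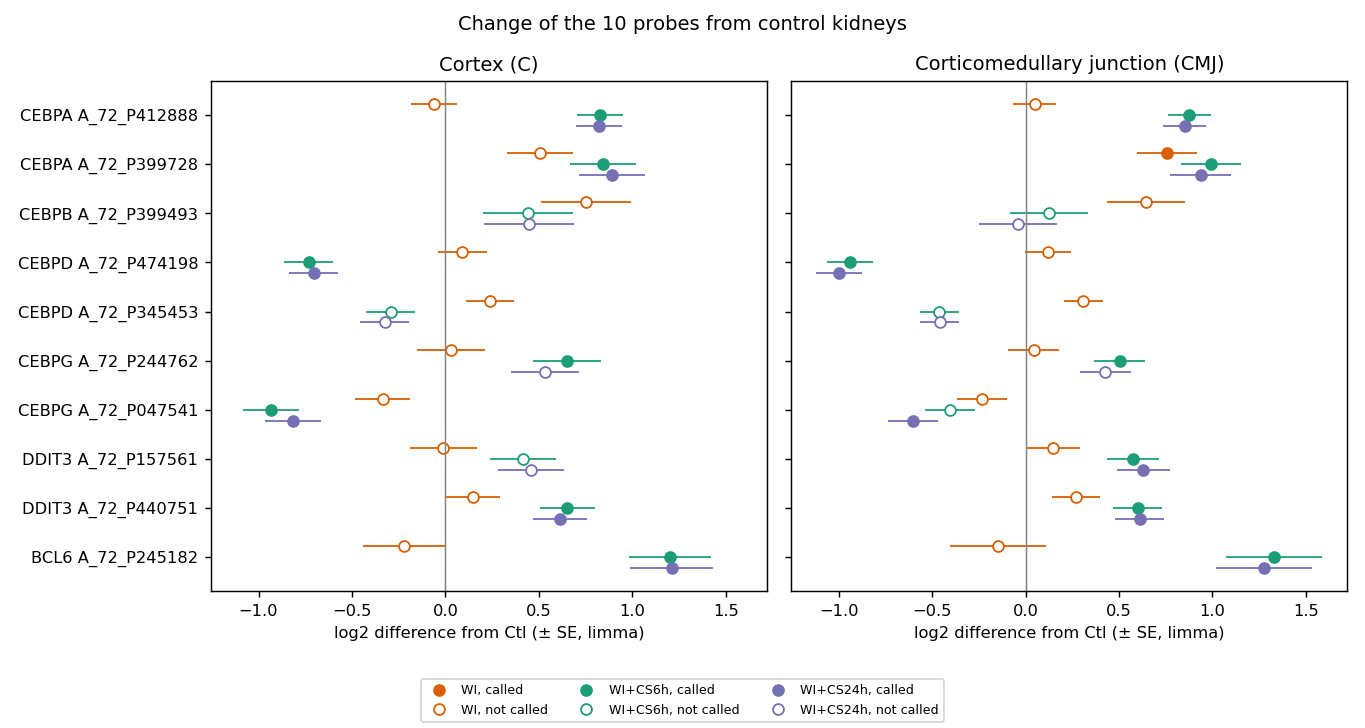
Log2 difference from the Ctl group of the same tissue (x axis, ± SE from limma) for each of the 10 probes (y axis), after WI, WI+CS6h and WI+CS24h. The points of WI+CS6h and WI+CS24h lie close together for every probe, and those of WI lie nearer to 0 for BCL6, the leading CEBPA probe and the leading CEBPD probe.

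CEBPA, the family member tied to terminal differentiation, rose after cold storage in both tissues on its leading probe. Its leading probe read 9.88, 9.67, 9.60, 9.72 and 9.997 in Ctl-C and 9.71, 9.58, 9.56, 9.94 and 9.78 in WI-C. After 6 h of storage (WI+CS6h-C) it read 10.76, 10.63, 10.74, 10.59 and 10.28, and after 24 h 10.78, 10.62, 10.69, 10.70 and 10.18. The cold-stored cortex samples all lay above every Ctl-C and WI-C sample. The means were 9.77 ± 0.16 (SD, n = 5) in Ctl-C and 9.71 ± 0.15 in WI-C, against 10.60 ± 0.19 at 6 h and 10.59 ± 0.24 at 24 h. In the junction the probe read 9.79, 9.55, 9.76, 9.47 and 9.76 in Ctl-CMJ and 9.80, 9.53, 9.67, 9.97 and 9.61 in WI-CMJ. After cold storage it read 10.56, 10.72, 10.62, 10.59 and 10.22 at 6 h and 10.53, 10.73, 10.59, 10.56 and 10.16 at 24 h. Again the groups with and without cold storage did not overlap. The log2 changes versus Ctl were 0.83, 0.82, 0.88 and 0.85 in WI+CS6h-C, WI+CS24h-C, WI+CS6h-CMJ and WI+CS24h-CMJ, or 1.77-fold to 1.84-fold, with SE 0.12 in the cortex and 0.12 in the junction and limma adjusted p of 0.000852, 0.000911, 0.000215 and 0.000277. Versus WI they were 0.89, 0.88, 0.83 and 0.80, all called. WI alone gave -0.06 in the cortex (95% interval -0.32 to 0.20) and 0.05 in the junction (-0.20 to 0.29). The samples numbered 5 were the lowest of their group in all 4 cold-stored groups, at 10.28, 10.18, 10.22 and 10.16. Without them the changes versus Ctl were 0.91, 0.93, 0.96 and 0.94.

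The second CEBPA probe, on coding sequence, was dim. It was well above background on 0 of 5 arrays in Ctl-C and in Ctl-CMJ, on 2 of 5 in WI-C and 3 of 5 in WI-CMJ, and on 3, 5, 4 and 2 of 5 in WI+CS6h-C, WI+CS24h-C, WI+CS6h-CMJ and WI+CS24h-CMJ. Only bounds can be set for its change from Ctl, because the Ctl level is taken as the higher of the probe's own signal and the lowest signal well above background on each array. It was at least 1.79-fold higher in WI+CS6h-C (measured means 3.36 and 2.52), by at least 1.86-fold at 24 h, and in the junction by at least 1.76-fold at 6 h and 1.70-fold at 24 h. Their adjusted p in limma were 0.00921, 0.00768, 0.00139 and 0.00217. These 4 calls held when any 1 array was left out, but all 4 were lost with normexp background correction, which adds an offset to low signals (0.03, 0.03, 0.05 and 0.08 on the log2 scale, adjusted p = 0.581, 0.523, 0.182 and 0.0198), and in the deposited matrix (0.16, 0.19, 0.17 and 0.16). The call in WI+CS6h-C was also lost with the share of spots well above background as a covariate, that in WI+CS24h-C with only the groups compared. This probe was also the one member called after warm ischemia alone, in WI-CMJ versus Ctl-CMJ (at least 1.5-fold, adjusted p = 0.0343), where the leading probe gave 0.05. The call was lost when any of 7 of the 10 arrays compared was left out, and with normexp it was 0.054 on the log2 scale (adjusted p = 0.218). Versus WI the coding probe's log2 changes were 0.34, 0.39, 0.24 and 0.18, none called. In the junction the 2 probes differed (leading minus second) by 0.59 and 0.62 versus WI-CMJ, and by -0.71 in WI-CMJ versus Ctl-CMJ. The exact permutation p was 0.00794 in each, adjusted 0.0272 over the 48 tests of probe pairs given below. No other comparison of the 2 CEBPA probes had an adjusted p under 0.05. Among markers of other cells that express CEBPA, the summed adipocyte signal (6 of 7 listed) was 1326 to 1532 in Ctl-C and 1563 to 2094 in the cold-stored cortex groups, and 1286 to 1621 in Ctl-CMJ against 1428 to 2265 in the cold-stored junction. The cold-stored samples numbered 5 gave 1904 to 2265, and the other 16 cold-stored samples 1428 to 1830. After warm ischemia alone the adipocyte sum was 1173 to 1595 in WI-C and 1231 to 2735 in WI-CMJ. FABP4 and CIDEC carried most of the sum, with mean log2 signals of 9.81 and 8.98 over the 40 arrays, and LEP came next at 6.435. PLIN1 was well above background on 1 of 40 arrays. Of those adipocyte markers LPL alone was called in WI+CS24h-C versus Ctl-C, and ADIPOQ gave 0.42 (adjusted p = 0.197). Their part in the CEBPA result was not tested.

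BCL6 rose after cold storage in both tissues. It read 8.18, 8.01, 8.32, 8.04 and 8.26 in Ctl-C and 7.94, 7.98, 7.94, 7.92 and 7.94 in WI-C. In cold-stored cortex it read 9.41, 9.75, 9.59, 9.72 and 8.34 at 6 h and 9.60, 9.36, 9.59, 9.60 and 8.70 at 24 h. All 10 of those cold-stored samples lay above every Ctl-C and WI-C sample, with the samples numbered 5 well below the other 4 of each group. BCL6 read 8.24, 8.15, 8.14, 8.50 and 8.49 in Ctl-CMJ and 8.16, 8.39, 8.17, 8.03 and 8.03 in WI-CMJ. Cold-stored junction read 9.66, 9.88, 9.93, 9.94 and 8.75 at 6 h and 9.96, 9.35, 10.21, 9.80 and 8.57 at 24 h. Here too the number 5 samples were the lowest of each cold-stored group. The mean rose from 8.16 ± 0.14 (SD, n = 5) in Ctl-C to 9.37 ± 0.59 at 6 h and 9.37 ± 0.39 at 24 h, and from 8.30 ± 0.18 in Ctl-CMJ to 9.63 ± 0.51 and 9.58 ± 0.64. The log2 changes versus Ctl were 1.20, 1.21, 1.33 and 1.27 in WI+CS6h-C, WI+CS24h-C, WI+CS6h-CMJ and WI+CS24h-CMJ (2.30-fold to 2.51-fold, SE 0.22 in the cortex and 0.26 in the junction, limma adjusted p of 0.00367, 0.00439, 0.00526 and 0.00601). Versus WI the changes were 1.42, 1.43, 1.48 and 1.42, all called.

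Without the samples numbered 5, the BCL6 changes versus Ctl were 1.46, 1.38, 1.55 and 1.53 (2.60-fold to 2.93-fold), with adjusted p of 1.45e-07, 3.41e-07, 1.17e-05 and 1.21e-05 in limma. That choice was made after the data were seen, and these samples were themselves the lowest for BCL6. Their removal lowered the SE to 0.087 in the cortex and 0.14 in the junction, so these adjusted p are no measure of a stronger effect. Those 4 samples read 8.34, 8.70, 8.75 and 8.57, while the other cold-stored samples read 9.41 to 9.75, 9.36 to 9.60, 9.66 to 9.94 and 9.35 to 10.21 in the same order of groups. They were also the samples with the high S100A12 and the low FBP1 and LRP2 signals given above, and the part of those signals in their BCL6 values was not tested. MS4A1, a B cell marker given here because BCL6 marks germinal centre B cells, was well above background on 12 of 40 arrays. After warm ischemia alone BCL6 was not called. All 5 WI-C samples, at 7.92 to 7.98, lay below all 5 Ctl-C samples, at 8.01 to 8.32, a log2 difference of -0.22 (SE 0.22, limma adjusted p = 1, 95% interval -0.68 to 0.24). In the junction the difference was -0.15 (-0.69 to 0.40) and the groups overlapped. The study lists CEBPA and BCL6 among the genes it followed, and it chose them on these samples, so their directions here are no independent evidence.

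**Figure D3:**
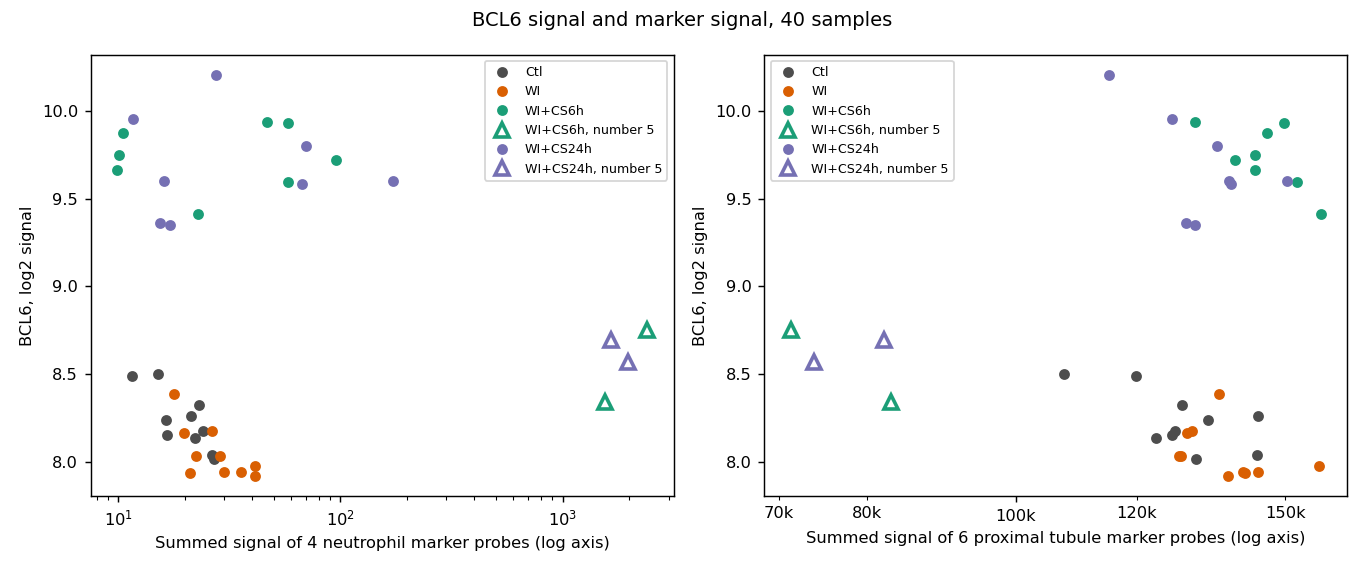
BCL6 log2 signal (y axis) against the summed linear signal of 4 neutrophil markers (left, log x axis) and of 6 proximal tubule markers (right, log x axis), 1 point per sample in all 40 samples, coloured by condition; open triangles are the 4 cold-stored samples numbered 5. Those 4 samples lie at 1556 to 2405 on the neutrophil axis and 71310 to 82880 on the proximal tubule axis, with BCL6 between 8.34 and 8.75, below the other cold-stored samples.

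CEBPD, the family member best known as an early response gene, fell after cold storage. Its leading probe read 11.77, 11.66, 11.77, 11.46 and 11.68 in Ctl-C and 11.42, 11.96, 12.18, 11.68 and 11.56 in WI-C. In stored cortex the readings were 10.91, 10.86, 10.80, 10.91 and 11.20 at 6 h and 10.85, 10.96, 10.75, 11.17 and 11.08 at 24 h. Each cold-stored cortex sample was below each Ctl-C and WI-C sample, and WI-C itself overlapped Ctl-C. In the junction the probe read 12.05, 11.98, 12.08, 11.49 and 11.92 in Ctl-CMJ and 11.76, 12.03, 12.10, 12.08 and 12.15 in WI-CMJ. At 6 h of cold storage it read 10.96, 10.90, 10.73, 10.99 and 11.24, and at 24 h 10.74, 10.95, 10.70, 11.08 and 11.07. The junction groups with and without cold storage did not overlap either. Relative to Ctl the log2 changes were -0.73, -0.71, -0.94 and -0.998 in the order used above, with SE 0.13 in the cortex and 0.12 in the junction and limma adjusted p of 0.00308, 0.00485, 0.000179 and 0.0001. Relative to WI they were -0.82, -0.80, -1.06 and -1.12, all called. After WI alone the changes were 0.09 (-0.18 to 0.36) and 0.12 (-0.14 to 0.38). Without the samples numbered 5 the changes versus Ctl were -0.80, -0.74, -1.01 and -1.04, a fall at least as large without them. On the 75th percentile scale the cortex changes versus Ctl were no longer called (-0.57 and -0.59, adjusted p of 0.0808 and 0.0963), while the junction changes were.

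The second CEBPD probe lies in the same transcript record and moved in the same direction by less. Its means were 10.98 ± 0.20 for Ctl-C, 11.22 ± 0.30 for WI-C, 10.69 ± 0.11 at 6 h and 10.65 ± 0.15 at 24 h of storage (SD, n = 5). In the junction they were 11.14 ± 0.19, 11.44 ± 0.17, 10.67 ± 0.12 and 10.68 ± 0.15 in the same order of conditions. Versus Ctl its log2 changes were -0.29, -0.32, -0.46 and -0.46, all below the size needed for a call, with adjusted p of 0.195, 0.199, 0.0137 and 0.0126. Versus WI they were -0.53, -0.56, -0.77 and -0.77 and all 4 were called, though the 2 cortex calls were lost when 1 of 6 (at 6 h) or 1 of 7 (at 24 h) of the 10 arrays compared was left out. Those 2 calls were also lost with 75th percentile scaling, quantile normalization within each group, the sample number as a block and only the groups compared. The gap between the probes was larger than the spread between samples. The leading probe gave differences (leading minus second) versus Ctl of -0.44, -0.38, -0.48 and -0.54 on the log2 scale (exact permutation test, two-sided, p = 0.00794 in each, the smallest that 5 against 5 can give). In all, 48 such tests were run on the 4 genes with 2 probes, and these 4 had an adjusted p of 0.0272 over the 48.

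The 2 CEBPG probes moved in opposite directions, so these data give no single direction for CEBPG, the partner-dependent member of the family. The leading probe read 4.92, 5.06, 4.92, 4.90 and 5.38 in Ctl-C, 5.03, 4.97, 4.96, 4.95 and 5.41 in WI-C, 6.02, 5.25, 5.80, 5.12 and 6.24 at 6 h of storage and 5.68, 5.58, 5.31, 5.77 and 5.49 at 24 h. In the junction it read 4.85, 4.83, 5.07, 4.74 and 4.56 for Ctl-CMJ, 4.89, 4.78, 4.76, 4.89 and 4.95 for WI-CMJ, 5.04, 5.45, 5.25, 5.20 and 5.63 at 6 h and 5.05, 5.57, 4.83, 5.23 and 5.49 at 24 h. Most cold-stored samples were above the Ctl samples of their tissue. The second probe read 4.85, 4.70, 5.06, 4.80 and 4.61 in Ctl-C, 4.54, 4.62, 4.53, 4.54 and 4.11 in WI-C, 3.31, 3.83, 3.80, 4.28 and 4.15 at 6 h and 3.81, 3.96, 4.05, 4.02 and 4.10 at 24 h. Its junction values were 4.48, 4.598, 4.78, 4.67 and 4.47 for Ctl-CMJ, 4.33, 4.403, 4.63, 3.94 and 4.52 for WI-CMJ, 4.11, 4.29, 4.05, 4.41 and 4.10 at 6 h and 4.03, 3.62, 3.86, 4.34 and 4.13 at 24 h. Every cold-stored sample was below every Ctl sample of its tissue on this probe. The leading probe changed by 0.65, 0.53, 0.50 and 0.43 versus Ctl (limma adjusted p of 0.0432, 0.123, 0.0404 and 0.0806), and it was called at 6 h in each tissue. Both of those calls were lost without the samples numbered 5, at 0.51 (adjusted p = 0.111) and 0.42 (adjusted p = 0.0711), and when most single arrays were left out (7 of 10 in the cortex and 8 of 10 in the junction). The second probe changed by -0.93, -0.81, -0.41 and -0.60 (adjusted p of 0.00148, 0.0045, 0.099 and 0.0119) and was called in all but WI+CS6h-CMJ. Versus WI it changed by -0.60, -0.48, -0.17 and -0.37 (adjusted p of 0.0356, 0.117, 0.55 and 0.138), and the one call, in WI+CS6h-C, was lost when any of 7 of the 10 arrays compared was left out. The leading probe changed versus WI by 0.62, 0.50, 0.46 and 0.38 (adjusted p of 0.0719, 0.198, 0.0616 and 0.127), with no call. After WI alone the second probe differed from Ctl by -0.34 (-0.65 to -0.02) in the cortex and -0.23 (-0.51 to 0.05) in the junction, and the leading probe by 0.029 and 0.044, none called. The difference between the probes versus Ctl (leading minus second) was 1.58 at 6 h and 1.35 at 24 h in the cortex, and 0.91 and 1.03 in the junction, with an exact permutation p of 0.00794 in each (two-sided, n = 5 against 5, adjusted 0.0272 over the 48 tests of probe pairs). Both probes were well above background on every array. Their sequences, printed above, come from different records, and whether both detect the same transcript was not tested. With normexp background correction the second probe's changes in the called comparisons were -0.11, -0.091 and -0.083. Those of the leading probe at 6 h were 0.28 in the cortex and 0.044 in the junction (limma adjusted p of 0.0835 and 0.873). The calls of both probes versus Ctl were lost with normexp and in the deposited matrix.

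**Figure D4:**
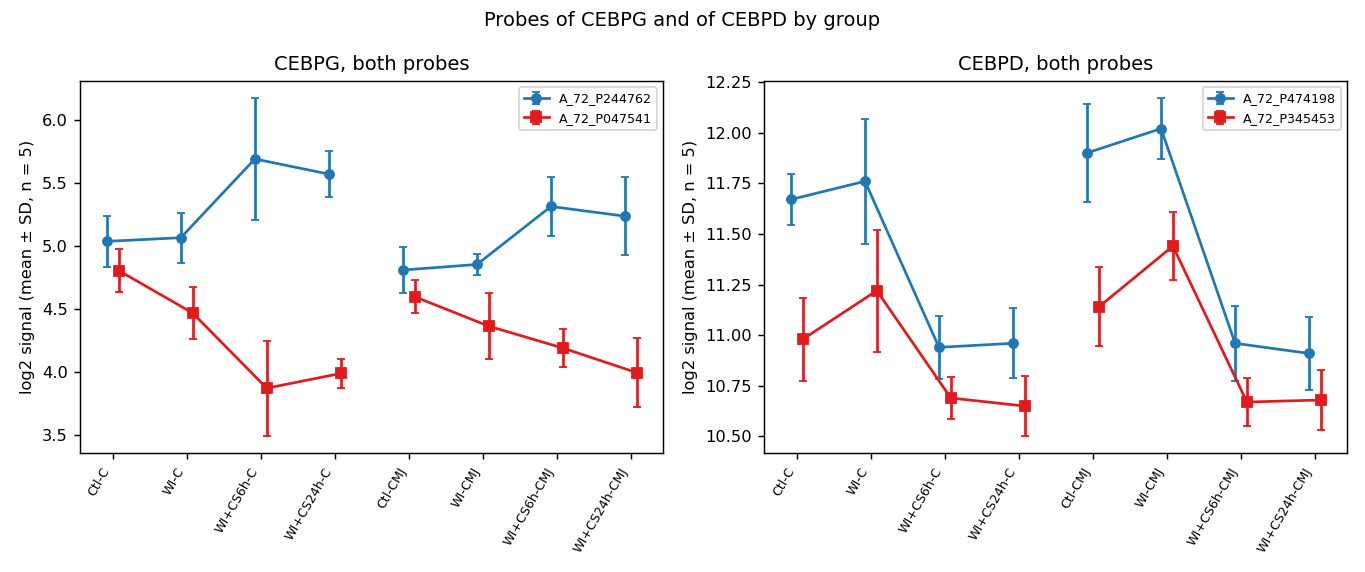
Group means of the log2 signal (y axis, ± SD, n = 5) in the 8 groups (x axis) for both probes of CEBPG (left) and both probes of CEBPD (right); the height of one probe against another carries no meaning, only the changes along a line. The CEBPG lines part in the cold-stored groups, the leading probe going up and the other down, while both CEBPD lines go down, the leading one further.

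DDIT3, which encodes CHOP, rose relative to Ctl on both probes in the cold-stored junction and on the second probe, A_72_P440751, alone in the cold-stored cortex, and it was called on neither probe relative to WI. The leading probe read 8.87, 8.49, 8.64, 8.33 and 8.48 in Ctl-C and 8.70, 8.37, 8.49, 8.57 and 8.62 in WI-C. With cold storage it read 8.55, 9.16, 9.26, 9.50 and 8.41 at 6 h and 8.77, 8.9995, 9.29, 9.17 and 8.85 at 24 h. The cold-stored cortex overlapped Ctl-C at both times. In the junction the leading probe read 8.68, 8.53, 8.47, 8.53 and 8.75 for Ctl-CMJ and 8.74, 8.54, 8.86, 8.80 and 8.77 for WI-CMJ. Cold-stored junction gave 9.08, 9.07, 9.37, 9.46 and 8.85 at 6 h and 9.11, 8.96, 9.66, 9.49 and 8.89 at 24 h, all above Ctl-CMJ. Its log2 changes versus Ctl were 0.42, 0.46, 0.57 and 0.63 (limma adjusted p of 0.176, 0.183, 0.0241 and 0.0125), called in the junction and not in the cortex. The interaction of tissue and cold storage on this probe was 0.16 at 6 h and 0.17 at 24 h, neither called (adjusted p of 0.936 and 1). Versus WI its changes were 0.43, 0.47, 0.43 and 0.48 (adjusted p of 0.233, 0.231, 0.0995 and 0.0591), none called. Without the samples numbered 5 it changed by 0.56, 0.50, 0.65 and 0.71 versus Ctl (adjusted p of 0.0643, 0.0927, 0.00767 and 0.00404) and by 0.57, 0.51, 0.50 and 0.56 versus WI (adjusted p of 0.0714, 0.12, 0.035 and 0.0186), with the junction called in both. The junction call at 6 h was lost without Ctl-CMJ sample 2, 3 or 4 or WI+CS6h-CMJ sample 3 or 4 (0.50 to 0.56, adjusted p of 0.0536 to 0.0647) and with normexp background correction (0.42, adjusted p = 0.0626).

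The second DDIT3 probe read 5.41, 4.99, 5.40, 5.10 and 5.31 in Ctl-C and 5.36, 5.37, 5.40, 5.26 and 5.57 in WI-C. With cold storage it read 5.51, 5.82, 6.25, 6.11 and 5.77 at 6 h and 5.71, 5.77, 5.99, 6.26 and 5.54 at 24 h. These values did not overlap those of Ctl-C. In the junction it read 5.19, 5.27, 5.33, 4.98 and 5.46 for Ctl-CMJ and 5.50, 5.20, 5.65, 5.64 and 5.59 for WI-CMJ. With cold storage it read 5.77, 5.69, 6.13, 6.12 and 5.53 at 6 h and 5.71, 5.79, 5.99, 6.09 and 5.70 at 24 h, above every Ctl-CMJ sample. The WI samples overlapped those of Ctl in both tissues. The log2 changes versus Ctl were 0.65, 0.62, 0.60 and 0.61 (limma adjusted p of 0.013, 0.0236, 0.011 and 0.00874), all called. Versus WI they were 0.50, 0.47, 0.33 and 0.34 (adjusted p of 0.067, 0.116, 0.176 and 0.163), none called. The calls versus Ctl depended on the processing. With normexp the changes were 0.15 to 0.19 and in the deposited matrix 0.40 to 0.42, below the size for a call, and on the 75th percentile scale the cortex changes were 0.53 and 0.56 with adjusted p of 0.0709 and 0.0761. The call at 24 h in the cortex was also lost without Ctl-C sample 2 (0.55, adjusted p = 0.0713), Ctl-C sample 4 (0.58, adjusted p = 0.0623) or WI+CS24h-C sample 4 (0.51, adjusted p = 0.0605). No comparison of the 2 probes had an adjusted p under 0.05 over the 48 tests of probe pairs. The sample numbered 5 was the lowest of its group in 3 of the 4 cold-stored groups for each probe. After WI alone the changes were -0.01 and 0.15 on the leading probe and 0.15 and 0.27 on the other, none called.

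CEBPB, the acute phase regulator, was not called in any of the 19 comparisons, and its highest means were in the WI groups. Its probe read 3.07, 3.09, 3.67, 3.18 and 3.80 in Ctl-C and 3.41, 4.34, 4.66, 4.18 and 3.96 in WI-C. It read 3.90, 3.68, 3.40, 3.15 and 4.16 in Ctl-CMJ and 3.48, 4.53, 4.50, 4.39 and 4.596 in WI-CMJ. The WI and Ctl samples overlapped in both tissues, and the first WI-CMJ sample was far below the other 4. The log2 difference was 0.75 in WI-C (0.25 to 1.25, adjusted p = 0.588) and 0.64 in WI-CMJ (0.20 to 1.08, adjusted p = 0.149). Leaving out that WI-CMJ sample gave 0.85 with an adjusted p of 0.0156, which would be a call. Over 26 alternative settings the WI difference ranged from 0.048 to 0.93 in the cortex and from 0.069 to 0.97 in the junction. In the cold-stored groups the probe ranged over 3.46 to 4.16, 3.18 to 4.36, 3.53 to 4.00 and 3.24 to 3.86, and differed from Ctl by 0.44, 0.45, 0.12 and -0.04. Its difference between WI+CS24h-CMJ and WI-CMJ was -0.68 (adjusted p = 0.0708), and at 6 h -0.52 (adjusted p = 0.188). The first of these would be a call with the slide as a block (-0.70, adjusted p = 0.0446) or after a filter on dim probes (adjusted p = 0.0437), and both would be without the first WI-CMJ sample (-0.89 and -0.72, adjusted p of 0.00605 and 0.0218). A further 3 probes carry a record described as the 3′ untranslated region of C/EBP beta and fall outside the rule. They start at positions 246 to 253 of that record and are 60 bases long, so they overlap. All 3 were well above background on 40 of 40 arrays. All of their changes versus Ctl were at most 0.15 in size and none was called.

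**Figure D5:**
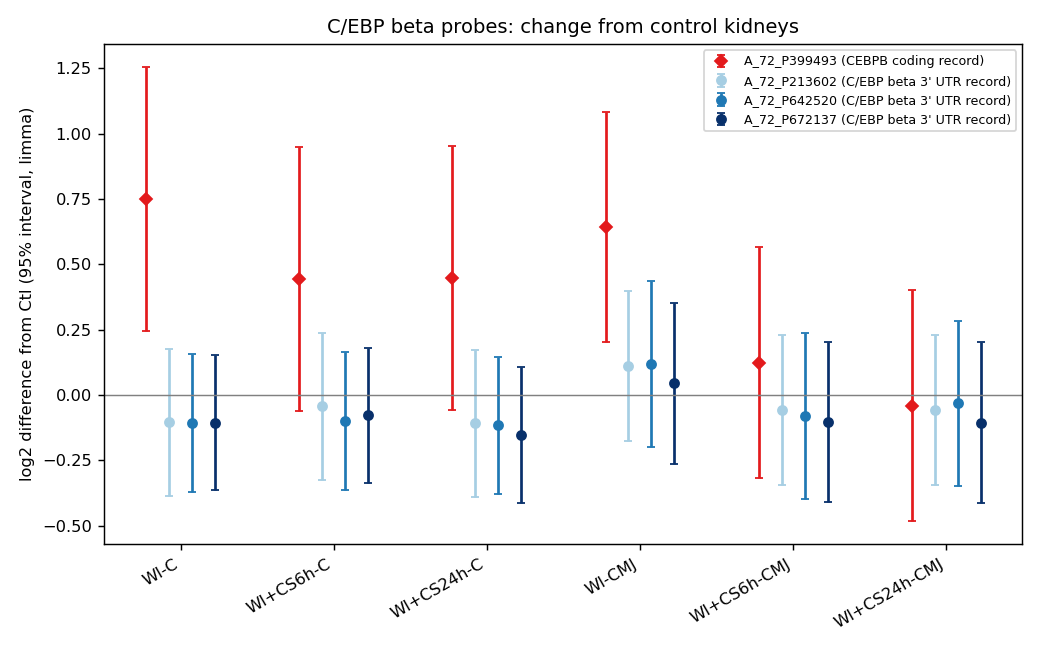
Log2 difference from the Ctl group of the same tissue (y axis, 95% interval from limma) for the CEBPB coding probe and 3 probes of a C/EBP beta 3′ untranslated region record, in 6 comparisons (x axis). The coding probe is highest in WI-C (0.75) and WI-CMJ (0.64), and the other 3 stay within 0.15 of 0.

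The length of cold storage made no difference that could be detected. Between 24 h and 6 h, 0 of 10 member probes were called in either tissue by limma, where 0% of all probes in the cortex and 0.00229% in the junction were. At an unadjusted p under 0.05 there were 0 members in each, beside 2.82% and 3.06% of all probes. The log2 differences were at most 0.12 in size in the cortex and 0.20 in the junction. For BCL6 the difference (24 h minus 6 h) was 0.01 in the cortex (-0.46 to 0.47, 95% interval) and -0.05 in the junction (-0.60 to 0.49). For the leading CEBPA probe it was -0.0045 (-0.26 to 0.25) and -0.03 (-0.27 to 0.22). For the leading CEBPD probe it was 0.026 (-0.25 to 0.30) and -0.06 (-0.31 to 0.20). The intervals of all 10 probes in both tissues lay within -0.60 to 0.51, so a larger change between the times would have been outside them. Nor was a member called between the tissues. Comparing CMJ with C within Ctl, WI, WI+CS6h and WI+CS24h gave 0 calls each by limma without a kidney term, beside 0.347%, 0.863%, 0.0643% and 0% of all probes, with 0, 1, 2 and 1 members at an unadjusted p under 0.05, beside 6.63%, 7.9%, 9.06% and 3.87%. Over all probes, the deviations of same-numbered cortex and junction samples from their group means correlated at 0.15 to 0.712 in WI and the cold-stored conditions, and at -0.174 to 0.222 in Ctl. With the number as a random block the calls were also 0 in each, beside 0.721%, 1.62%, 0.225% and 0% of all probes, with a lowest adjusted p among members of 0.458, 0.285, 0.274 and 0.784. BCL6 was higher in the junction in 5 of 5 same-numbered pairs in WI, by 0.092 to 0.41 on the log2 scale (mean 0.22, adjusted p = 0.873 with the block), and in 5 of 5 in WI+CS6h, by 0.13 to 0.41 (mean 0.27, adjusted p = 0.538). All 5 pairs went 1 way for 3, 3, 1 and 2 of the 10 probes in Ctl, WI, WI+CS6h and WI+CS24h. The same share over all probes was not computed, so these counts are description only. The interactions of tissue with WI, WI+CS6h and WI+CS24h also gave 0 calls among members and 0% among all probes, with 0, 1 and 0 members at an unadjusted p under 0.05, beside 2.05%, 4.86% and 2.56% of all probes. The one in WI+CS6h was the second CEBPG probe, whose change was 0.53 higher in the junction than in the cortex on the log2 scale (adjusted p = 0.882).

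Over the 40 samples the leading probes of CEBPA and BCL6 were correlated at r = 0.903, and CEBPD was correlated with them at -0.895 and -0.868. These r describe the 8 groups' shared pattern as well as sample differences, and the samples share kidneys, so no p is given. Within groups, after each group mean was taken off, CEBPA and BCL6 gave r = 0.598 and CEBPA and CEBPD -0.324. Both rest on the cold-stored samples numbered 5: without them, over 36 samples, the within-group r were -0.255 and -0.0425, while those not corrected for the groups were 0.917 for CEBPA and BCL6 and -0.902 and -0.903 for CEBPD with each. Among 13300 other probes with a symbol and signal, those with the highest Pearson r to each leading probe were as follows. The CEBPA pattern was most like that of RHOV (r = 0.948), then MEF2A, a MADS box factor (0.945), and PARD6B, a cell polarity protein (0.944). BCL6 was most like LYPD6 (0.954), ID2, an inhibitor of helix-loop-helix factors (0.933), and the homeobox gene HLX (0.912). CEBPD was most like KLF15, a glucocorticoid-responsive zinc finger factor (0.91), RNASET2 (0.906) and ZNF217 (0.905). DDIT3 was most like SMAD6 (0.875), HLX (0.863) and RGS2 (0.852), CEBPG most like BZW1 (0.901), PBX3 (0.896) and RNLS (0.894), and CEBPB most like EHMT2 (0.833), TRAF7 (0.833) and VCL (0.819). HLX thus stood in the lists of both BCL6 and DDIT3.

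Genes around the members were counted by list, each gene by its brightest probe. The shares of all probes called, given above, are 2.9% in the cortex and 3.7% in the junction at 24 h versus Ctl, and 0.0849% and 0.787% after WI, so 1 call in a list of about 20 is not far from the background at 24 h. Of the other genes with a CEBP symbol, CEBPE was not called in any comparison. CEBPZ was listed by its symbol alone and not as a leucine zipper factor. CEBPZ changed versus Ctl by 0.69, 0.68, 0.52 and 0.59 in WI+CS6h-C, WI+CS24h-C, WI+CS6h-CMJ and WI+CS24h-CMJ (limma adjusted p of 0.0557, 0.0774, 0.139 and 0.0769), and was called in WI+CS24h-CMJ versus WI-CMJ (0.71, adjusted p = 0.0338) and in no other comparison. Of the stress genes that go with DDIT3, 13 of 26 listed were measured, and none rose in any comparison with Ctl. In WI+CS24h-C versus Ctl-C 1 fell (7.69% of the list), DDIT4, a stress-induced inhibitor of mTOR signalling, at -1.24 (adjusted p = 0.00114). In WI+CS24h-CMJ versus Ctl-CMJ 3 fell (23.1%), DDIT4 (-1.09), the chaperone DNAJC3 (-0.76) and the stress sensor ERN1 (-0.50, and -0.44 without the samples numbered 5, below the size for a call). The list's median was -0.072 in WI+CS24h-C, beside 0.014 for all probes, and -0.017 in WI+CS24h-CMJ, beside 0.0082. Of the acute phase and inflammatory C/EBP targets, 22 of 26 were measured. After WI alone IL1B, a proinflammatory cytokine, rose in both tissues, by 2.26 in the cortex (adjusted p = 0.0044) and 2.18 in the junction (adjusted p = 0.019), where CXCL8, a neutrophil attractant, also rose (1.62, adjusted p = 0.0453, well above background on 3 of 5 Ctl-CMJ arrays). At 24 h of cold storage 3 rose and 1 fell in each tissue, 18.2% of the list beside 2.9% and 3.7% of all probes. In the cortex IL1B (2.23), SAA3, an acute phase protein (2.10), and the monocyte attractant CCL2 (1.12) were the largest. SAA3 was not called without the samples numbered 5 (1.93, adjusted p = 0.0628). In the junction IL1B (2.28), IL6 (-2.19) and CCL2 (1.15) were the largest. IL6 was dim in WI+CS24h-CMJ, with a mean of 2.84, and well above background on 4 of 5 arrays. The list's median was 0.12 in WI+CS24h-C and 0.19 in WI+CS24h-CMJ, against the same medians of all probes.

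All 20 metabolic and differentiation targets were measured, and 1 was called in each tissue at 24 h (5% of the list, near the 2.9% and 3.7% of all probes), ID2, at 0.84 in the cortex (adjusted p = 0.0052) and 0.75 in the junction (adjusted p = 0.0144). The list's medians were -0.11 and 0.026. Of genes known as BCL6 targets 20 of 25 were measured. At 24 h in the cortex 1 rose and 3 fell relative to Ctl-C, 20% of the list. PDK4, a kinase that shuts pyruvate out of oxidation, fell by 2.48 on the log2 scale (adjusted p = 0.00178), the immune checkpoint ligand CD274 rose by 0.98 (adjusted p = 0.0467) and GADD45A, a DNA damage response gene, changed by -0.98 (adjusted p = 0.0461). In WI+CS24h-CMJ versus Ctl-CMJ 2 rose and 2 fell, again 20%, led by PDK4 (-2.52), the costimulatory ligand CD80 (at least 2.21-fold, since it was well above background on no Ctl-CMJ array) and CD274 (0.97). CD80 was also called in WI-CMJ versus Ctl-CMJ (at least 2.44-fold, adjusted p = 0.0123). The medians of this list were 0.073 and -0.11. Of the BCL6 corepressors and relatives 5 of 16 were measured and 0 were called in the 6 comparisons with Ctl. Of 19 measured upstream regulators (20 listed), 1 was called at 24 h (5.26% of the list), FOXO3, a stress-responsive forkhead factor, which fell by 0.51 in the cortex (-0.42 without the samples numbered 5, below the size for a call). These counts describe the lists and do not test them as sets.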

How the data were processed

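RNA from 40 pig kidney samples was read on single-colour Agilent 44k arrays. Per the labels and methods, the authors scanned the arrays and extracted spots with Agilent Feature Extraction 11.5.1.1, then normalized in R 2.15.2 with limma. The authors deposited for each array its spot intensity values (a background-subtracted processed signal, a mean signal and flags), which were used here, and a matrix of log2 median signals, quantile-normalized over the 40 arrays and without background subtraction, which served as an alternative.

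Here, log2 processed signals were quantile-normalized over 40 arrays, with outlier-flagged spots left out, and averaged per probe (43603 probes). Groups were compared with limma 3.58.1 in R 4.3.3, 1 fit of 20 arrays per tissue and 1 fit of 40 arrays for tissue comparisons and interactions, without covariates. Adjusted p-values (Benjamini-Hochberg) cover all probes of a comparison, and a call needs an adjusted p under 0.05 and a log2 change of at least 0.5. The number of arrays limits the precision. The test was checked on simulated data.

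The members, lists and tests were chosen with earlier results of these data known. All member probes are named, and from each list the 3 called genes with the largest change are named in WI and in WI+CS24h versus Ctl, besides CEBPE, CEBPZ and the 3 genes most like each leading probe. Of the 209 genes listed, 149 had a probe named by symbol in the array files or the gene tables. Per the labels, 5 kidneys gave both the 6 h and the 24 h samples, with no word on whether sample numbers match. Deviations from the group means of same-numbered samples correlated at 0.614 to 0.861 between 6 h and 24 h in the junction and at -0.352 to 0.63 in the cortex. Between the tissues they correlated at 0.15 to 0.46 in WI, 0.211 to 0.663 in WI+CS6h, 0.276 to 0.712 in WI+CS24h and -0.174 to 0.222 in Ctl. The arrays lay on 10 slides read on 2 scan days, each group with 2 or 3 arrays per day. Alternatives covered scaling, background correction, filters, blocks and left-out arrays. The summed signal of the listed B cell markers is not reported here.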

Additional observations from a re-analysis of the deposited data

Results flagged for a closer look

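Among 80 tests for a sample far from the other 4 of its group (each probe in each group), 9 passed, where chance gives about 1 in 20. Samples numbered 5 made 7 of the 9, and 5 of these were the cold-stored ones with the high S100A12 and low FBP1 and LRP2 signals.

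BCL6 was far below the other samples in sample 5 of WI+CS6h-C (8.34, others 9.41 to 9.75), of WI+CS24h-C (8.70, others 9.36 to 9.60) and of WI+CS6h-CMJ (8.75, others 9.66 to 9.94). The leading CEBPA probe was low in sample 5 of WI+CS24h-C (10.18), and the leading CEBPD probe was high in sample 5 of WI+CS6h-C (11.2, others 10.8 to 10.91). The part of the marker signals in these values was not tested.

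Sample 5 of WI-C, which is another kidney, was high on the leading CEBPG probe (5.41, others 4.95 to 5.03) and low on the second CEBPG probe (4.11, others 4.53 to 4.62). The CEBPB probe was low in sample 1 of WI-CMJ (3.48, others 4.39 to 4.60), and the leading CEBPD probe was low in sample 4 of Ctl-CMJ (11.49, others 11.92 to 12.08).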

How the results depend on the processing

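Of the 45 calls of member probes, 0 reversed under any alternative, and 37 held in every fit that left out 1 array. With the sample number as a replicate block 42 of the 45 held. Under the alternatives other than single scan days, 23 calls held throughout. The BCL6 and leading CEBPA calls were lost only within single scan days, which leave 2 or 3 arrays per group. Calls held in 37 of 45 with 75th percentile scaling, 45 with quantile normalization within each tissue, 40 within each group, 29 with normexp, 26 of 41 in the deposited matrix, 45 each with the systematic-name mean, the filter on dim probes, outliers kept, the slide block and the random kidney block, 43 with the scan day block, 36 with only the groups compared, 39 with the share of spots above background as a covariate, and 42 of 44 without the samples numbered 5 (an alternative chosen after seeing the data, as were the cold-stored groups alone and the random kidney block).

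Percentages in brackets are the share of all probes called under the same setting. Versus Ctl-C, WI+CS6h-C had 7 calls (4.45%), and 3 with normexp (0.987%), 3 in the deposited matrix (2.11%), 1 and 0 on scan days 1 and 2 alone (0.184% and 0.0253%), and 4 with the covariate (2.14%). WI+CS24h-C had 6 (2.9%), and 3 with normexp (0.776%), 3 in the deposited matrix (1.45%), and 2 and 0 on the single days (0.475% and 0.0138%). Versus WI-C, WI+CS6h-C had 5 (2.44%), 40% of them higher, and 3 with 75th percentile scaling (2 higher and 1 lower, 2.08%), 3 in the deposited matrix (2 and 1, 1%), 1 and 0 on the single days (0.0574% and 0.0161%) and 2 with only the groups compared (0.677%). WI+CS24h-C had 4 (1.68%), and 1 and 0 on the single days (0.11% and 0.00459%). The 1 call in WI-CMJ versus Ctl-CMJ (0.787%) became 0 with quantile normalization within each group (0.828%), with normexp (0.115%), in the deposited matrix (0.314%), on either scan day (0% and 1.28%) and with the covariate (0.505%). Versus Ctl-CMJ, WI+CS6h-CMJ had 7 (3.33%), and 3 with normexp (2 higher and 1 lower, 0.663%), 4 in the deposited matrix (3 and 1, 1.39%) and 0 on day 1 (0.0138%). WI+CS24h-CMJ had 7 (3.7%), and 4 with normexp (0.709%), 4 in the deposited matrix (1.52%), and 0 and 2 on the single days (0.0505% and 0.98%). Versus WI-CMJ, both cold-stored groups had 4 (3.28% and 3.34%), and 0 on day 1 (0.0161% and 0.0413%). With quantile normalization within each group, 1 call appeared between the tissues in WI+CS6h (2.9%) and 1 in the interaction of tissue and WI+CS6h (2.22%), both on the second CEBPG probe. Within-group normalization moved the median of all probes by up to 0.22 on the log2 scale. It gave 7 calls in WI+CS6h-C versus WI-C (5 higher and 2 lower, against 2 and 3), where the share of all probes called went from 2.44% to 6.3% and the higher ones among them from 53.3% to 73.3%, and 6 in the same junction comparison (4 and 2, against 2 and 2), where they went from 3.28% to 4.94% and from 48.3% to 74.9%. WI+CS24h-C versus WI-C had 2 higher and 1 lower with 75th percentile scaling (1.42%), within-group normalization (2.03%) and the deposited matrix (0.768%), against 2 and 2, as had both junction comparisons with WI-CMJ in the deposited matrix (1.32% and 1.3%). Normexp and the deposited matrix keep an offset or the background in the signal, which shrinks the changes of dim probes by construction, and the causes of the other losses were not tested.

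Leaving out 1 array gave 6 to 7 calls at 6 h and 5 to 6 at 24 h versus Ctl-C, 3 to 6 and 3 to 4 versus WI-C, 0 to 2 in WI-CMJ, 5 to 7 in WI+CS6h-CMJ and 7 to 8 in WI+CS24h-CMJ versus Ctl-CMJ, 4 to 5 in each versus WI-CMJ, and 0 to 0 in the other comparisons. With the sample number as a replicate block the calls were 7 and 6 in the cortex versus Ctl-C, 4 and 3 versus WI-C, 1 in WI-CMJ, 6 and 7 in the junction versus Ctl-CMJ, and 4 and 5 versus WI-CMJ, with 0 between the tissues of each condition. Between the junction at 24 h and WI-CMJ the block added CEBPB (-0.68, adjusted p = 0.0444). In the cold-stored groups alone, the block gave 0 calls between 24 h and 6 h in each tissue. In cortex, 2 of 5 samples correlated best with their own number between 6 h and 24 h. Within scan days 1 and 2, BCL6 changed versus Ctl by 1.32 and 1.13 at 6 h and 1.27 and 1.04 at 24 h in the cortex, and by 1.00 and 1.55 and by 1.06 and 1.58 in the junction. A planned count of motifs in promoters was not run, since no promoter sequences were used here.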
